A study of Mus musculus with 38 samples.

Results

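The experiment crossed a hairpin against Nkx2-1 with loss of the FoxA factors in 1 organoid line, and the quantity described here is their interaction for each gene. It used 8 of the 38 libraries of the series, chosen as all libraries of 1 deposited count table, in 4 groups of 2. All were bulk RNA libraries of mouse lung adenocarcinoma organoids, which are tumour cells grown as clusters in Matrigel, of line 1027B on a mixed 129/B6 background. Every group carried Foxa1flox and Foxa2flox together with Rosa-FSF-CreERT2, p53frt and KrasFSF-G12D, so the controls held the floxed alleles and the inducible Cre as well. The groups were shScramble with ethanol vehicle, shScramble with 4-hydroxytamoxifen (4-OHT), shNKX2-1 with vehicle and shNKX2-1 with 4-OHT, the drug being given at 2 uM for 72 hours. The 4-OHT activates CreERT2, which excises floxed sequence. The line came from 1 tumour, and nothing in the labels ties the 2 libraries of a group to separate cultures, so p-values measure the spread between these libraries, which may be technical. No line without floxed alleles was included, and effects of 4-OHT or Cre cannot be told apart from those of FoxA loss.

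Nkx2-1 is the homeodomain factor that specifies lung epithelium and drives surfactant and other alveolar genes. Foxa1 and Foxa2 are forkhead factors that can bind closed chromatin, and in endodermal tissues they act beside tissue-specific factors such as Nkx2-1 in the lung and Hnf4a in gut and liver. In lung adenocarcinoma, loss of Nkx2-1 is known to be followed by gastric and other gut programmes that need FoxA factors. The interaction is the 4-OHT effect in shNKX2-1 minus the 4-OHT effect in shScramble, both as log2 differences. A positive interaction therefore means that 4-OHT left a gene relatively higher with the Nkx2-1 hairpin, and a negative one relatively lower. It is equally the hairpin effect with 4-OHT minus the hairpin effect with vehicle.

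Total counts ran from 13.6 to 16.3 M (mega) per library. In shNKX2-1 4-OHT replicate 2, 11.7% of the counts were mitochondrially encoded, against 2.29% to 4.30% in the other 7. The median correlation of that library's log2 levels with those of the other 7 was 0.875, against 0.929 to 0.948 for each of the others. Within shNKX2-1 4-OHT, 30.7% of the genes tested differed by over 1 on the log2 scale between the 2 libraries, against 4.00% to 8.10% within the other 3 groups. Interactions are therefore given with all 8 libraries and again with 7, without that replicate, where shNKX2-1 4-OHT rests on 1 library whose spread is taken from the other groups. Effects of 4-OHT or of the hairpin alone are from the 8-library fit unless 7 are named. Epithelial markers summed to 6919 to 15580 CPM (counts per M counts, scaled by TMM factors), with Epcam, Cdh1 and Nkx2-1 present in all 8 libraries. Of 10 fibroblast markers, 5 were at 0 in every library and the sum stayed at 0.246 to 1.54 CPM. The endothelial sum of 14.2 to 68.9 CPM was nearly all Esam, with Cldn5 and Emcn at 0. The leukocyte sum of 41.4 to 163 CPM was mostly Cd14, with Adgre1 and Tyrobp among the markers at 0 and Ptprc at 0.590 to 3.18 CPM.

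Nkx2-1 (ENSMUSG00000001496, GRCm38 chromosome 12, 56531958 to 56536908) stood at 424 and 428 CPM in shScramble vehicle, 359 and 408 CPM in shScramble 4-OHT, 350 and 280 CPM in shNKX2-1 vehicle, and 181 and 207 CPM in shNKX2-1 4-OHT. Every library with the hairpin was below every library with the scrambled hairpin, but the transcript was still present in all of them. The hairpin difference was -0.44 ± 0.22 (log2 ± SE) with vehicle and -0.98 ± 0.22 with 4-OHT, and with 8 libraries neither passed edgeR's quasi-likelihood test (Benjamini-Hochberg adjusted p = 0.755 and 0.0763). With 7 libraries the difference with 4-OHT passed (-1.08, adjusted p = 0.0422) and the one with vehicle did not (-0.46, adjusted p = 0.201). The interaction of Nkx2-1 itself was -0.55 ± 0.31 with 8 libraries and -0.62 ± 0.25 with 7 (adjusted p = 0.866 and 0.679).

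Foxa2 (ENSMUSG00000037025, chromosome 2, 148042877 to 148046969) stood at 89.0 and 76.8 CPM in shScramble vehicle, and 2.26 and 2.58 CPM with 4-OHT. With the Nkx2-1 hairpin it stood at 85.9 and 66.7 CPM with vehicle, and 1.89 and 0.327 CPM with 4-OHT. The fall was called in both arms (edgeR adjusted p = 0.00227 and 0.00175), and its interaction did not pass (-0.95 ± 0.71 with 8 libraries, -0.21 ± 0.35 with 7). Foxa1 (ENSMUSG00000035451, chromosome 12, 57540628 to 57546916) stood at 32.1 and 22.1 CPM in shScramble vehicle and 20.1 and 18.5 CPM with 4-OHT, then 34.1 and 27.3 CPM in shNKX2-1 vehicle and 21.9 and 19.7 CPM with 4-OHT. Each 4-OHT library was below the vehicle libraries of its arm, but the decrease was not called in either (adjusted p = 0.469 and 0.236). These are counts over whole genes, which do not show excision of an exon. Foxa3, a paralog that was not floxed, stood at 13 and 21.1 CPM with vehicle and 2.88 and 1.68 CPM with 4-OHT in shScramble. In shNKX2-1 it stood at 20.3 and 25.3 CPM with vehicle and 4.20 and 2.37 CPM with 4-OHT, and it fell in both arms (adjusted p = 0.00969 and 0.00973). The interactions of Foxa1 and Foxa3 were -0.07 ± 0.38 and 0.11 ± 0.58 with 8 libraries and 0.03 ± 0.35 and 0.47 ± 0.53 with 7, and both changed sign when single libraries were left out.

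**Figure D1:**
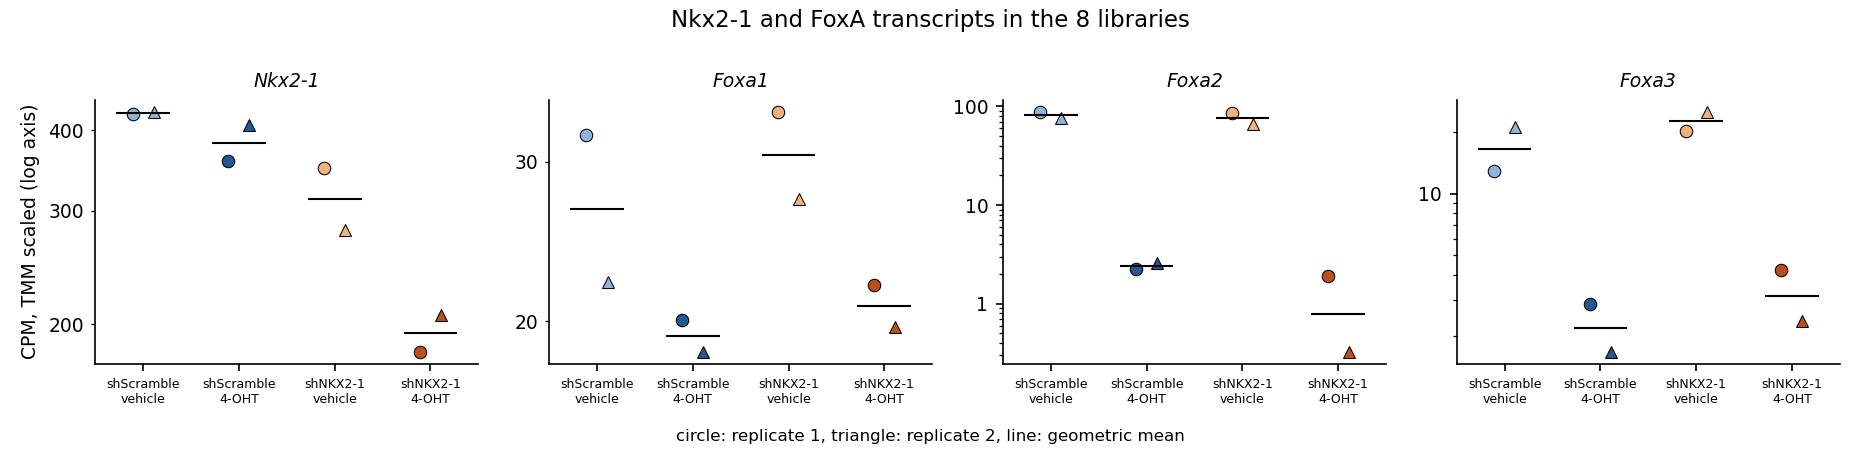
Levels of Nkx2-1, Foxa1, Foxa2 and Foxa3 in CPM on a log axis for the 4 groups on the x axis; each point is 1 library and each line the geometric mean of 2. Nkx2-1 was 280 to 350 CPM in shNKX2-1 vehicle against 424 and 428 CPM in shScramble vehicle, and Foxa2 was 0.327 to 2.58 CPM in the 4 libraries with 4-OHT.

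With all 8 libraries, no interaction passed the test: 0 of 14465 genes (0%) reached an adjusted p under 0.05 by edgeR, and the smallest adjusted p was 0.159. At an unadjusted p under 0.05 there were 457 genes with a higher interaction (3.16%) and 325 with a lower one (2.25%), or 5.41% together. DESeq2 called 89 genes (0.615%; 45 higher and 44 lower) from the same counts. Without shNKX2-1 4-OHT replicate 2, edgeR called 7 of 15071 genes (0.0464%; 5 higher and 2 lower), with 1043 at an unadjusted p under 0.05, and DESeq2 called 141 (0.936%). All 7 were also called by DESeq2 with 8 and with 7 libraries. Leaving out the other library of that group instead, replicate 1, gave 3552 calls among 15223 genes (23.3%), so the count of calls moved with which of the 2 libraries stood for shNKX2-1 4-OHT. In that fit shNKX2-1 4-OHT is the library with 11.7% mitochondrial counts, and the part of its quality in those calls was not tested.

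More genes were called in the comparisons from which the interaction is formed, whose standard errors are smaller by construction. In shScramble, 4-OHT changed 627 of 14465 genes (4.33%; 241 higher and 386 lower), and in shNKX2-1 it changed 919 (6.35%; 394 higher and 525 lower). The hairpin changed 34 genes with vehicle (0.235%) and 228 with 4-OHT (1.58%). These comparisons share libraries and the same estimate of the spread. Leaving out 1 library gave 138 to 1655, 258 to 6946, 0 to 275 and 0 to 5758 calls in the 4 comparisons, and the highest of the second and the last came without shNKX2-1 4-OHT replicate 1. Among the 782 genes with an unadjusted interaction p under 0.05, the fitted 4-OHT effect was below 0 in shScramble and above 0 in shNKX2-1 for 243 (31.1%, against 14.8% of all genes tested). It was above 0 in shScramble and below 0 in shNKX2-1 for 166 (21.2%, against 15.7%). The others differed in the size of effects with the same sign. The 782 were selected on the difference between these same 2 effects, which by itself raises the share with opposite signs. The interaction is a difference of log2 effects, and for 735 of the 782 (94%) the difference of CPM changes had the same sign, against 93.2% of all genes.

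**Figure D2:**
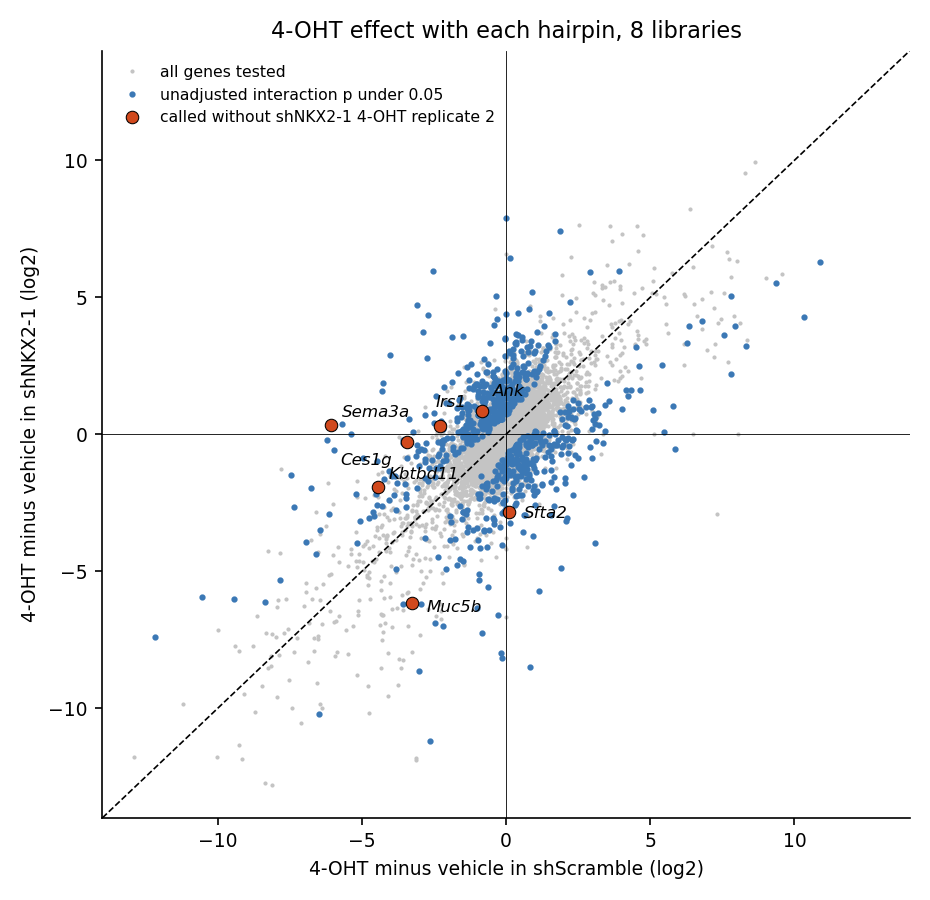
Fitted log2 effect of 4-OHT in shScramble (x axis) and in shNKX2-1 (y axis) for 14465 genes with 8 libraries; the dashed line marks equal effects, blue points are the 782 genes with an unadjusted interaction p under 0.05, and orange points the 7 genes called without shNKX2-1 4-OHT replicate 2. Sema3a, Ces1g, Irs1, Ank and Kbtbd11 lie above the line, and Sfta2 and Muc5b below it.

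The 5 genes called with a higher interaction in 7 libraries were lower with 4-OHT in shScramble, and less so or not at all in shNKX2-1. Ces1g (ENSMUSG00000057074, chromosome 8, 93302369 to 93337308) encodes a carboxylesterase. It stood at 36.3 and 36.7 CPM in shScramble vehicle and 3.24 and 3.49 CPM with 4-OHT, but at 13 and 12.8 CPM in shNKX2-1 vehicle and 13.7 and 7.61 CPM with 4-OHT. The hairpin and 4-OHT were thus each followed by a lower level, but together they did not take it to the level of shScramble with 4-OHT. Its interaction was 3.16 ± 0.46 with 8 libraries (edgeR adjusted p = 0.159) and 3.54 ± 0.26 with 7 (adjusted p = 0.0210).

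Kbtbd11 (ENSMUSG00000055675, chromosome 8, 15011025 to 15033333), a kelch and BTB domain protein, fell in both arms. Its levels were 71.2 and 79.5 CPM with vehicle and 3.43 and 3.55 CPM with 4-OHT in shScramble, then 53.6 and 60.5 CPM and 16.9 and 12.9 CPM in shNKX2-1. The 2 groups with 4-OHT did not overlap, and the interaction was 2.50 ± 0.34 with 8 libraries and 2.69 ± 0.24 with 7 (edgeR adjusted p = 0.159 and 0.0270). Irs1 (ENSMUSG00000055980, chromosome 1, 82233101 to 82291416) encodes the adaptor that couples insulin and IGF receptors to PI3K. It fell in shScramble from 52.1 and 53.5 CPM to 11.8 and 9.62 CPM (adjusted p = 0.00372), while the shNKX2-1 libraries held 40.1 and 43.8 CPM with vehicle and 41.1 and 63.1 CPM with 4-OHT. The interaction was 2.62 ± 0.38 with 8 libraries and 2.29 ± 0.24 with 7 (edgeR adjusted p = 0.159 and 0.0432).

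Sema3a (ENSMUSG00000028883, chromosome 5, 13125414 to 13602565), a secreted semaphorin that guides axons and endothelial cells, had the largest interaction of these 7 genes. It fell in shScramble from 40.7 and 27.6 CPM to 0.428 and 0.581 CPM (adjusted p = 0.00347). In shNKX2-1 it was at 10.4 and 6.82 CPM with vehicle and 4.74 and 17.1 CPM with 4-OHT, a spread between the last 2 libraries that spans both vehicle values. The interaction was 6.40 ± 0.89 with 8 libraries and 5.23 ± 0.53 with 7 (edgeR adjusted p = 0.159 and 0.0432). Its class 3 relatives Sema3c and Sema3e, named after their values were seen, had interactions of 2.12 ± 0.40 and 1.16 ± 0.39 with 8 libraries and 2.08 ± 0.38 and 1.17 ± 0.37 with 7, none called by edgeR. Sema3c stood at 262 and 284 CPM in shNKX2-1 4-OHT, above the 53.1 to 170 CPM of the other 6 libraries. Ank (ENSMUSG00000022265, chromosome 15, 27466677 to 27594909), a membrane protein of pyrophosphate export, fell outside the rule for named genes and was added after its values were seen. It stood at 72.3 and 65.7 CPM in shScramble vehicle, 41.7 and 36.1 CPM in shScramble 4-OHT, 44.0 and 43.2 CPM in shNKX2-1 vehicle, and 100 and 59.0 CPM in shNKX2-1 4-OHT. With 8 libraries neither arm was called for Ank, and with 7 both were (-0.85 in shScramble and 1.19 in shNKX2-1, edgeR adjusted p = 0.00835 and 0.00780). Its interaction was 1.69 ± 0.39 with 8 libraries and 2.04 ± 0.21 with 7 (edgeR adjusted p = 0.447 and 0.0432).

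The 2 genes called with a lower interaction were an alveolar and an airway gene. Sfta2 (ENSMUSG00000090509, chromosome 17, 35601549 to 35650571), surfactant associated 2, is a secreted product of lung epithelium. It stood at 97.0 and 92.9 CPM in shScramble vehicle and 103 and 102 CPM with 4-OHT, without a called change. With the Nkx2-1 hairpin it fell from 56.6 and 48.8 CPM to 9.47 and 5.32 CPM (adjusted p = 0.00232), so the 4 libraries with shNKX2-1 were all below the 4 with shScramble. The interaction was -2.93 ± 0.40 with 8 libraries and -2.56 ± 0.22 with 7 (edgeR adjusted p = 0.159 and 0.0270). Muc5b (ENSMUSG00000066108, chromosome 7, 141839070 to 141873084), a gel-forming airway mucin, stood at 324 and 286 CPM in shScramble vehicle and 30.2 and 33.1 CPM with 4-OHT. In shNKX2-1 it was at 1425 and 2264 CPM with vehicle and 13.5 and 37.9 CPM with 4-OHT. The groups with 4-OHT overlapped, and the vehicle groups did not, and the hairpin effect with vehicle was not called with 8 libraries (2.60, adjusted p = 0.0850) but was with 7 (2.58, adjusted p = 0.00440). The interaction of Muc5b was -2.90 ± 0.64 with 8 libraries and -3.81 ± 0.40 with 7 (edgeR adjusted p = 0.447 and 0.0432). All 7 calls were lost when a minimum log2 change of 1 was required, and 0 to 3 of the 7 remained when a further library was left out.

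**Figure D3:**
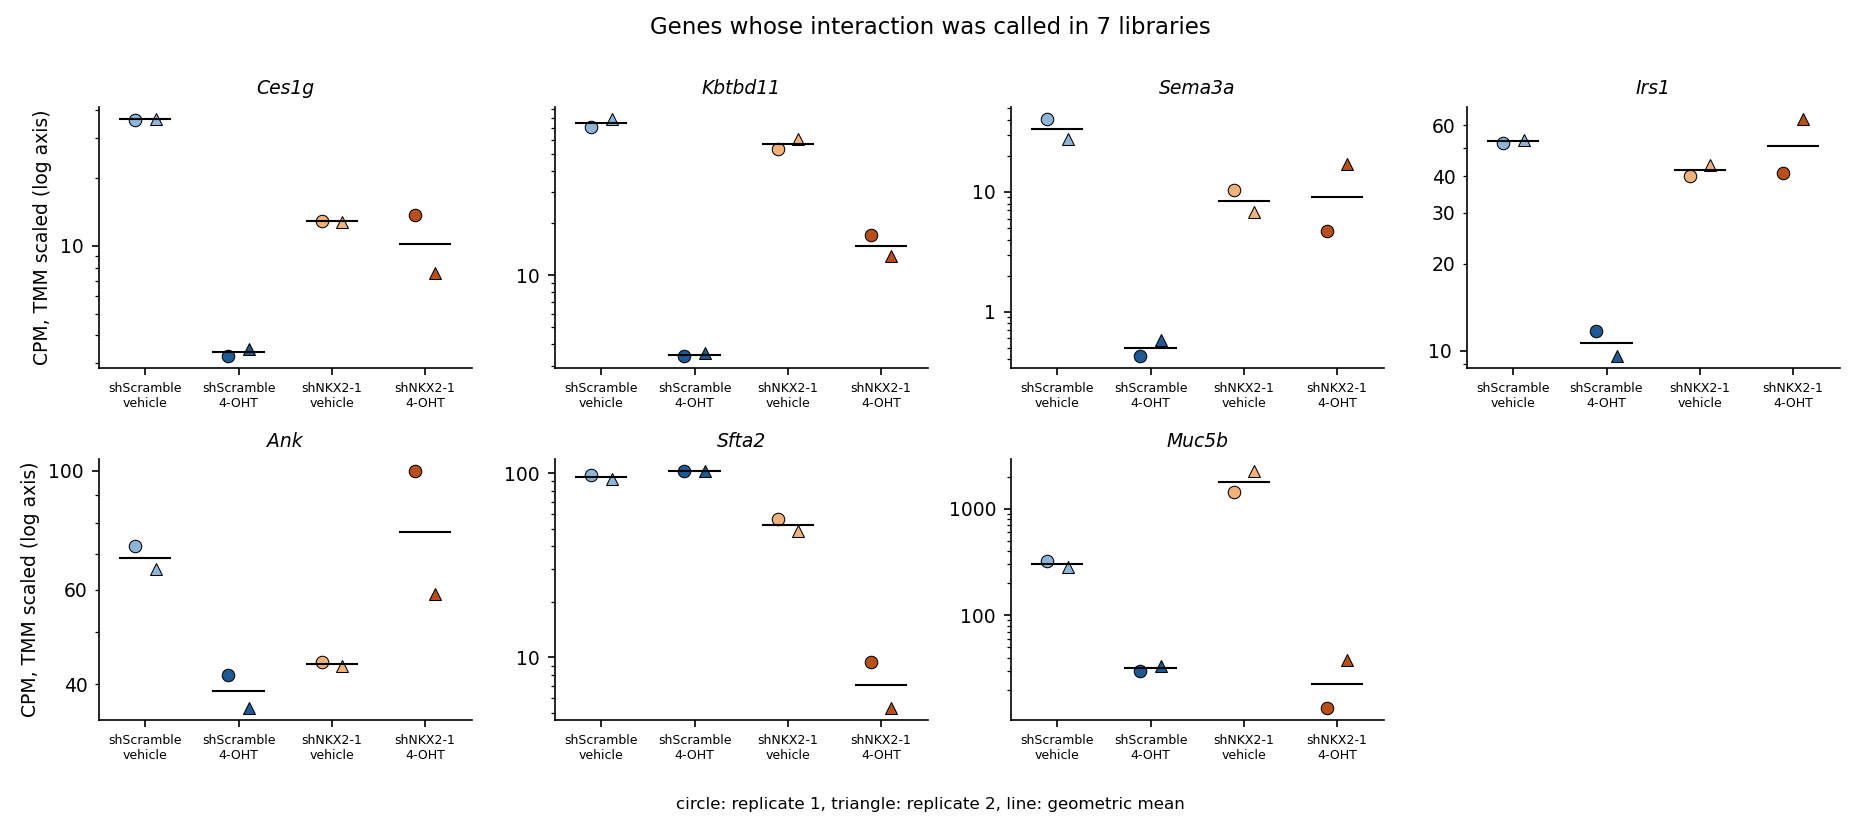
Levels in CPM on a log axis of the 7 genes called without shNKX2-1 4-OHT replicate 2 (the orange triangle), for the 4 groups on the x axis; each point is 1 library and each line the geometric mean of 2. Ces1g fell to 3.24 and 3.49 CPM in shScramble 4-OHT, and Sfta2 to 9.47 and 5.32 CPM in shNKX2-1 4-OHT.

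By the rule for named genes, the 6 genes per direction with the smallest p in 8 libraries were also described, and none of these 12 passed with 8 libraries (adjusted p from 0.159 to 0.191). Beside Kbtbd11, Sema3a, Ces1g and Irs1, the higher ones were Sptssb and Arhgap29. Sptssb, a small subunit of serine palmitoyltransferase, the first enzyme of sphingolipid synthesis, fell in shScramble from 89.6 and 47.4 CPM to 5.57 and 7.81 CPM (adjusted p = 0.00391). In shNKX2-1 it stood at 101 and 64.5 CPM with vehicle and 105 and 139 CPM with 4-OHT, and its interaction was 3.92 ± 0.54 with 8 libraries and 3.73 ± 0.53 with 7. Arhgap29, a GTPase-activating protein for RhoA, differed mainly in the vehicle groups. It stood at 37.0 and 51.5 CPM in shScramble vehicle and 58.6 and 71.9 CPM with 4-OHT, then at 6.81 and 7.19 CPM in shNKX2-1 vehicle and 56.7 and 96.1 CPM with 4-OHT. The hairpin lowered it with vehicle (-2.66, adjusted p = 0.0215) and 4-OHT raised it in shNKX2-1 (adjusted p = 0.00175), giving an interaction of 2.88 ± 0.44 with 8 libraries and 2.47 ± 0.31 with 7.

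The lower ones, beside Sfta2, were Tent5c, Antxr1, Chsy1, Ffar4 and Slc1a3, and each fell with 4-OHT in shNKX2-1. Tent5c, a poly(A) polymerase that stabilises secretory mRNAs, stood at 26.4 and 22.8 CPM in shScramble vehicle and 38.3 and 38.9 CPM with 4-OHT. In shNKX2-1 it fell from 27.9 and 53.2 CPM to 5.41 and 4.99 CPM (adjusted p = 0.00316), and the interaction was -3.61 ± 0.47 with 8 libraries and -3.54 ± 0.50 with 7. Antxr1, an anthrax toxin receptor that binds collagen, stood at 66.7 to 111 CPM in the 4 shScramble libraries, and fell in shNKX2-1 from 123 and 87.1 CPM to 11.4 and 10.7 CPM (adjusted p = 0.00214). Its interaction was -3.38 ± 0.44 with 8 libraries and -3.31 ± 0.48 with 7. In shScramble neither of these 2 changes passed the test.

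Chsy1, a chondroitin sulfate synthase, stood at 36.5 and 28.1 CPM in shScramble vehicle and 14 and 20.2 CPM with 4-OHT, and fell in shNKX2-1 from 18.7 and 17.6 CPM to 0.947 and 1.06 CPM (adjusted p = 0.00109). Ffar4, a receptor for long-chain fatty acids, fell in both arms, from 15.3 and 12.6 CPM to 2.82 and 2.19 CPM in shScramble and from 28.5 and 34.2 CPM to 0.406 and 0.0818 CPM in shNKX2-1. Slc1a3, a glutamate and aspartate transporter, stood at 44.8 and 39.4 CPM in shScramble vehicle and 54.7 and 56.6 CPM with 4-OHT, and fell in shNKX2-1 from 78.4 and 70.8 CPM to 27.7 and 24.2 CPM (adjusted p = 0.00659). The interactions were -3.25 ± 0.44 for Chsy1, -4.42 ± 0.65 for Ffar4 and -1.92 ± 0.30 for Slc1a3. With 7 libraries they were -3.31 ± 0.46, -3.75 ± 0.48 and -1.81 ± 0.22 (edgeR adjusted p = 0.118, 0.107 and 0.0873).

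Among the gene lists, the alveolar ones lay below the median of all genes, which was 0.01 with 8 libraries and 0.00 with 7. The 22 measured genes of alveolar type 2 cells, which make surfactant, had a median interaction of -0.42 with 8 libraries, -0.32 with 7 and -1.07 without shNKX2-1 4-OHT replicate 1 in place of replicate 2. Of these, 15 were below 0, and 1 higher and 5 lower had an unadjusted p under 0.05 (27.3%, against 5.41% of all genes). Among all 14465 genes tested, 7312 were above 0 and 7153 below. The counts of members above or below 0 in the lists that follow are to be read against these numbers. The 17 genes of alveolar type 1 cells, the flat cells of gas exchange, had medians of -0.54, -0.23 and -0.99 in the same order, with 1 higher and 3 lower at that threshold (23.5%). No member of either list was called by edgeR with 8 or with 7 libraries. With 8 libraries DESeq2 called 1 type 2 member higher and 2 lower, which were Ctsh, Sftpb and Lyz2, and 1 type 1 member lower, which was Ager. The members named in the paragraphs on lists below were chosen after their values were seen, and their arms are described by the 8-library fit.

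Sftpb, which encodes the hydrophobic surfactant protein B needed for breathing, stood at 7080 and 6913 CPM in shScramble vehicle and 2405 and 2239 CPM with 4-OHT, a decrease that was not called (-1.59, adjusted p = 0.122). In shNKX2-1 it fell from 5368 and 2522 CPM to 233 and 101 CPM (adjusted p = 0.00309). The interaction was -2.97 ± 0.66 with 8 libraries and -2.47 ± 0.53 with 7 (edgeR adjusted p = 0.447 and 0.280). Sftpc, surfactant protein C and the most specific marker of type 2 cells, fell in shScramble from 584 and 1157 CPM to 10.5 and 8.91 CPM (adjusted p = 0.00221). In shNKX2-1 it fell from 61.8 and 218 CPM to 0.135 and 0.0818 CPM (adjusted p = 0.00148). The last group held 3 counts in all against 4323 with vehicle, a ratio of 1310 with a 95% exact counting interval of 449 to 6370, which covers counting error only. The size of the Sftpc interaction (-3.71 ± 1.20 with 8 libraries, -3.43 ± 1.91 with 7) therefore rests on few counts.

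Lgi3, a secreted protein of type 2 cells, stood at 44.9 and 94.7 CPM in shScramble vehicle and 18.4 and 22.7 CPM with 4-OHT, and fell in shNKX2-1 from 28.1 and 49.7 CPM to 2.77 and 2.7 CPM (adjusted p = 0.00359). Napsa, an aspartic protease that processes surfactant protein B, went the other way in shScramble, from 8.49 and 7.36 CPM to 35.6 and 31.0 CPM (2.07, adjusted p = 0.0517). It was at 0.0818 to 0.812 CPM in all 4 shNKX2-1 libraries. The macrophage and type 2 cell lysozyme Lyz2 stood at 3.68 to 8.08 CPM in shScramble, 0.366 and 3.82 CPM in shNKX2-1 vehicle, and had 0 counts in both shNKX2-1 4-OHT libraries. Against a floor of 3 counts over the group (0.111 CPM), that was at least 20.0-fold lower than in the 2 vehicle libraries pooled. Most of the pooled vehicle counts came from replicate 2, and replicate 1, at 0.366 CPM, was much nearer the floor. Ctsh, a cathepsin that also processes surfactant protein B, was the member with a higher interaction (1.39 ± 0.29 with 8 libraries, 1.51 ± 0.21 with 7). It fell in shScramble from 472 and 542 CPM to 179 and 183 CPM (adjusted p = 0.00744), and stayed at 390 to 453 CPM in the 4 shNKX2-1 libraries.

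Of the type 1 genes, Ager, the receptor for advanced glycation end products, stood at 318 and 271 CPM in shScramble vehicle and 436 and 440 CPM with 4-OHT. In shNKX2-1 it fell from 160 and 71.3 CPM to 17.1 and 2.54 CPM (adjusted p = 0.0304). Its interaction was -4.12 ± 1.00 with 8 libraries and -3.31 ± 0.56 with 7 (edgeR adjusted p = 0.463 and 0.166). Clic5, an intracellular chloride channel protein, stood at 339 and 297 CPM in shScramble vehicle and 118 and 108 CPM with 4-OHT. It fell in shNKX2-1 from 186 and 116 CPM to 28.9 and 13.2 CPM (adjusted p = 0.00671). Not all type 1 members went this way: with 8 libraries 14 had an interaction below 0 and 3 above. Sema3e, described above, was the type 1 member higher at an unadjusted p under 0.05 (1.16 with 8 libraries, 1.17 with 7). Aqp5 moved from -0.54 with 8 libraries to 0.23 with 7, and Cav1 was at 0.36 and 0.59. For Sftpb, Ager and Clic5 the lowest value of all 8 was in the library with 11.7% mitochondrial counts, while replicate 1 of the same group was also below every library of the other 3 groups.

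**Figure D4:**
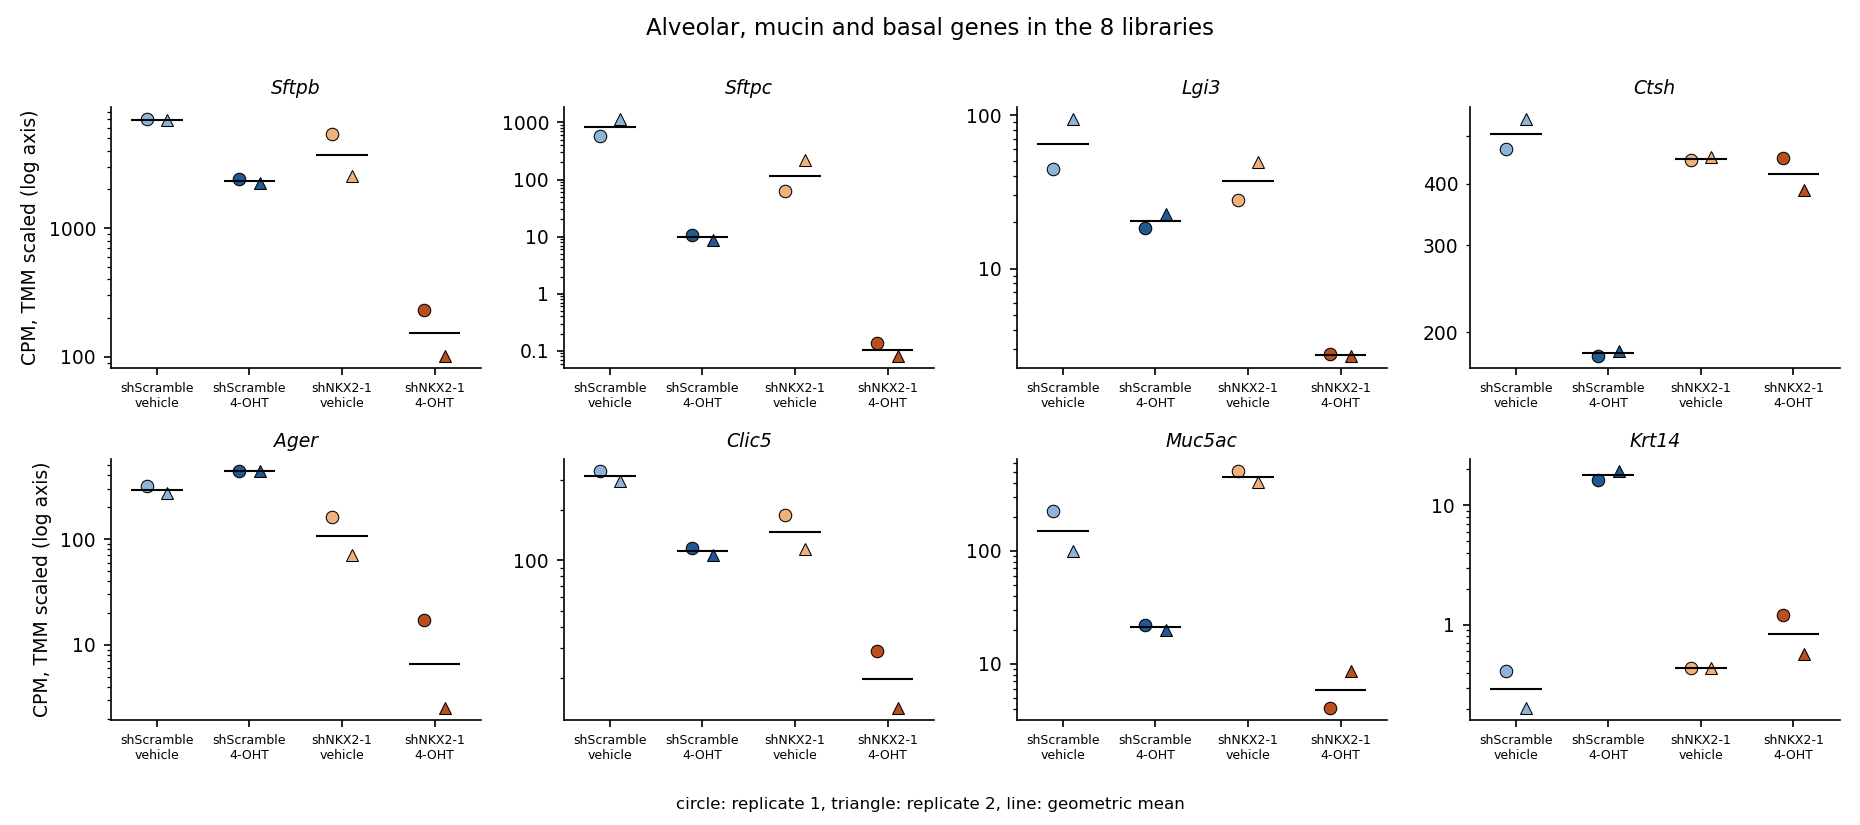
Levels in CPM on a log axis of 8 alveolar, mucin and basal genes for the 4 groups on the x axis; each point is 1 library and each line the geometric mean of 2. Sftpb, Lgi3, Ager and Clic5 were lowest in shNKX2-1 4-OHT, Ctsh was lowest in shScramble 4-OHT (179 and 183 CPM), and Krt14 was highest there (16.3 and 19.2 CPM).

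Promoter sequences were read for 2 of the lower genes, Sftpb and Sfta2, and for Sema3a as a higher one, since FoxA and NKX2-1 are known to bind promoters of surfactant genes. Each sequence is from RefSeq (GRCm38.p6), on the plus strand, with 250 bases before and 50 from the start site. Capitals mark matches on either strand to the forkhead motifs TGTTTAC and TGTTTGC or to the NKX2-1 type motifs CAAGTG and CTCAAG, which do not overlap in these sequences.
Sftpb, chr6:72304360-72304659: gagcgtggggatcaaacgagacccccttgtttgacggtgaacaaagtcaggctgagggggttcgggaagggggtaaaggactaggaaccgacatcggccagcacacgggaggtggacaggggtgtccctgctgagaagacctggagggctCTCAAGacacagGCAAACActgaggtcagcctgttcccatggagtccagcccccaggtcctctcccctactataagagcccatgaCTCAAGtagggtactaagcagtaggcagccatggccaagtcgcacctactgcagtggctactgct
Sfta2, chr17:35649458-35649757: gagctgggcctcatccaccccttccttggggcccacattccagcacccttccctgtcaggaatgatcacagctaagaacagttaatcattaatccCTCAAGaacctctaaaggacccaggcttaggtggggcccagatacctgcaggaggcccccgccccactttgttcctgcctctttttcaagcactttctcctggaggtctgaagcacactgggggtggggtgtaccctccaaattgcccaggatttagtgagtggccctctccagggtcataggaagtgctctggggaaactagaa
Sema3a, chr5:13396534-13396833: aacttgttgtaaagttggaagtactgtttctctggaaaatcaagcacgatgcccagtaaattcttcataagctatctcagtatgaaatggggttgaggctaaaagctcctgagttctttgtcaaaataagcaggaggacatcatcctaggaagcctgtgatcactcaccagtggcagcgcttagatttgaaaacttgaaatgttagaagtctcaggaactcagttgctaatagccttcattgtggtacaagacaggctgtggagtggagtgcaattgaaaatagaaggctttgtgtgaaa
The Sftpb sequence holds 2 matches to CTCAAG, from positions -100 and -15, and 1 to TGTTTGC on the minus strand, from position -88, with the start site at +1. The Sfta2 sequence holds 1 match to CTCAAG, from position -155, and the Sema3a sequence holds none. Of the other genes described above, those of Ces1g, Irs1, Ank, Sptssb and Arhgap29, with a higher interaction, and of Tent5c, Chsy1, Ffar4, Slc1a3 and Ager, with a lower one, held none either. The interaction of Sftpb did not pass with 8 or with 7 libraries, and that of Sfta2 passed only with 7. Matches were also found in FoxA genes, whose interactions passed in neither fit. The Foxa1 promoter held a forkhead match (position -141). Foxa2, in 1 of its promoters, and Foxa3 held an NKX2-1 type match (positions -187 and -131). Across 10019 tested genes with a promoter in that table, 7.40% held a forkhead match and 26.6% an NKX2-1 type match. The shares were 10.8% and 27.5% of the 287 such genes with a higher interaction at an unadjusted p under 0.05, and 8.41% and 26.1% of the 226 with a lower one. These shares are descriptions of short windows, with no test.

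The 13 measured airway secretory genes had a median interaction of -0.80 with 8 libraries and -1.24 with 7. These medians turned on Spdef, Scgb3a1 and Reg3g, which had 0 counts in a group, and over the other 10 members they were -0.17 and 0.18. In all, 1 higher and 2 lower had an unadjusted p under 0.05 (23.1%). Muc5ac, the mucin of goblet and gastric surface cells, stood beside Muc5b in this respect. It fell in shScramble from 225 and 100 CPM to 22.2 and 20.0 CPM (adjusted p = 0.0105), and in shNKX2-1 from 510 and 405 CPM to 4.06 and 8.59 CPM (adjusted p = 0.00109). The interaction of Muc5ac was -3.23 ± 0.63 with 8 libraries and -3.84 ± 0.63 with 7 (edgeR adjusted p = 0.380 and 0.161). Aldh3a1, an aldehyde dehydrogenase of airway epithelium, was the member higher at that threshold (2.88 ± 1.23 with 8 libraries, 3.29 ± 1.30 with 7), with 38 and 3.38 CPM within shScramble vehicle alone. Spdef, Scgb3a1 and Reg3g were at or near 0 in all shScramble libraries and in shNKX2-1 with 4-OHT, so their interaction cannot be read. Scgb3a1, a club cell secretoglobin, had 23.6 and 35.7 CPM in shNKX2-1 vehicle alone.

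Gastric and intestinal genes were lower with 4-OHT in both arms. Of 19 measured members, 4-OHT lowered 12 in shScramble (against 2.67% of all genes tested) and 13 in shNKX2-1 (against 3.63%), with median effects of -3.83 and -4.93, and the median interaction was 0.31 with 8 libraries and 0.34 with 7. At an unadjusted p under 0.05, 1 member was higher and 2 were lower (15.8%, against 5.41% of all genes tested). Hnf4a, the gut and liver nuclear receptor, fell from 165 and 107 CPM to 10.3 and 8.84 CPM in shScramble and from 206 and 163 CPM to 7.58 and 4.42 CPM in shNKX2-1, with an interaction of -1.11 ± 0.46 with 8 libraries and -0.75 ± 0.39 with 7. Anxa10, a gastric annexin, fell in both arms too, to 0 to 0.982 CPM in the 4 libraries with 4-OHT. Genes of the liver-type plasma protein list, which held 9 measured members, had medians of -6.45 and -7.13 in the arms and -1.59 for the interaction. With the 5 members that had 0 counts in a group set to a floor of 3 counts over the group, the median was -1.45, and over the other 4 members alone it was 0.35. Apob, the structural protein of lipoproteins, was one of those 4. It stood at 3.24 and 2.23 CPM in shScramble vehicle and 1.41 and 1.29 CPM with 4-OHT, and fell in shNKX2-1 from 86.1 and 88.4 CPM to 11 and 4.99 CPM (adjusted p = 0.00303), with an interaction of -2.42 ± 0.57 with 8 libraries and -1.94 ± 0.35 with 7. The hairpin had raised Apob with vehicle (4.99, adjusted p = 0.00607).

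Among the 12 measured squamous and basal genes the members differed in sign (median 0.23 with 8 libraries, 0.09 with 7). Krt14, the keratin of basal cells, rose in shScramble from 0.413 and 0.203 CPM to 16.3 and 19.2 CPM (adjusted p = 0.00166). In shNKX2-1 it stood at 0.439 and 0.438 CPM with vehicle and 1.22 and 0.573 CPM with 4-OHT, and its interaction was -4.76 ± 0.77 with 8 libraries and -4.31 ± 0.64 with 7 (edgeR adjusted p = 0.241 and 0.128). Ivl, the cornified envelope protein involucrin, went the other way. It stood at 39.7 and 34.5 CPM in shScramble vehicle and 79.8 and 44.0 CPM with 4-OHT, and rose in shNKX2-1 from 38.4 and 27.4 CPM to 141 and 166 CPM (adjusted p = 0.00807), with an interaction of 1.48 ± 0.45 with 8 libraries and 1.38 ± 0.44 with 7. Krt4, a keratin of stratified mucosa, was at 0.129 to 1.83 CPM in shScramble and 5.20 to 18.3 CPM in shNKX2-1, and its interaction was 2.75 ± 1.09 with 8 libraries and 2.29 ± 1.15 with 7. Of 16 genes of the transitional alveolar state 12 were below 0. Sfn and Krt19 had an unadjusted p under 0.05 (12.5%, against 5.41% of all genes tested) but did not pass (adjusted p = 0.773 and 0.813). The median of that list was -0.13 with 8 libraries and 0.12 with 7. Sfn, the 14-3-3 sigma protein, rose in shScramble from 48.8 and 30.5 CPM to 180 and 182 CPM (adjusted p = 0.00653), and stood at 29.3 and 34.0 CPM and then 68.6 and 46.6 CPM in shNKX2-1.

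Of 20 measured interferon response genes, 15 had an interaction above 0 with 8 libraries, against 7312 of all 14465 genes tested. The median was 0.83 with 8 libraries, 1.06 without shNKX2-1 4-OHT replicate 2 and 0.39 without replicate 1 of that group, and 3 higher and 1 lower had an unadjusted p under 0.05 (20.0%). With 4-OHT, 4 were called higher and 2 lower in shScramble (against 1.67% and 2.67% of all genes tested), and 7 higher and 0 lower in shNKX2-1 (against 2.72% and 3.63%). Ddx58, the cytosolic RNA sensor RIG-I, stood at 22.9 and 27.4 CPM in shScramble vehicle and 43.5 and 35.9 CPM with 4-OHT, and rose in shNKX2-1 from 12.6 and 12.6 CPM to 50.3 and 59.1 CPM (adjusted p = 0.00297). Its interaction was 1.46 ± 0.33 with 8 libraries and 1.36 ± 0.26 with 7. Mx1, a GTPase that restricts viruses, fell in shScramble from 16.7 and 12.9 CPM to 3.86 and 2.52 CPM (adjusted p = 0.0147), and stood at 4.87 to 7.83 CPM in shNKX2-1, with an interaction of 1.85 ± 0.51 with 8 libraries and 1.81 ± 0.49 with 7. Parp14 and Trim30a, which are also interferon-induced, were called by DESeq2 with 8 and with 7 libraries. Parp14 rose in both arms, from 7.66 and 7.90 CPM to 22.6 and 28.3 CPM in shScramble and from 4.90 and 6.82 CPM to 62.1 and 86.5 CPM in shNKX2-1 (edgeR interaction 1.95 ± 0.40 with 8 libraries and 1.71 ± 0.33 with 7, adjusted p = 0.416 and 0.214). Gbp2, a guanylate-binding protein, was the member lower at an unadjusted p under 0.05, with 0.118 to 2.91 CPM in all libraries. The Oas genes have near-identical copies, and the sources used here do not give how reads shared between copies were counted.

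The 17 NF-kB and chemokine genes had medians of 0.49 with 8 libraries and 0.74 with 7, but -0.07 without shNKX2-1 4-OHT replicate 1, with no member under an unadjusted p of 0.05. For the 14 antigen presentation genes the median was -0.10 with 8 libraries and 0.28 with 7, -0.76 without shNKX2-1 4-OHT replicate 1, and 0.39 with 8 libraries once 3 members with 0 counts in a group were set to the floor. The 12 p53 and senescence genes had medians of 0.51 with 8 libraries, 0.32 with 7 and 0.15 without shNKX2-1 4-OHT replicate 1. Of these 9 were above 0. Trp53inp1 and Sesn1 had an unadjusted p under 0.05 (16.7%, against 5.41% of all genes tested) but did not pass (adjusted p = 0.649 and 0.866). Trp53inp1, a p53-induced autophagy protein, stood at 13.4 to 22.6 CPM in shScramble, 14.6 and 14.7 CPM in shNKX2-1 vehicle, and 29.0 and 43.7 CPM with 4-OHT. Of 18 MAPK feedback genes 10 were above 0, near the share of all genes tested. Etv1 and Fosl1 had an unadjusted p under 0.05 (11.1%, against 5.41% of all genes tested) but did not pass (edgeR adjusted p = 0.617 and 0.818). Etv1, an ETS factor downstream of ERK, rose in both arms, from 5.01 and 5.27 CPM to 13.6 and 12.4 CPM in shScramble and from 4.25 and 3.38 CPM to 23.3 and 31.7 CPM in shNKX2-1, with an interaction of 1.51 ± 0.41 with 8 libraries and 1.29 ± 0.33 with 7.

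Sp5, a zinc finger factor induced by Wnt, stood apart in the Wnt target list of 8 measured genes (median 0.21 with 8 libraries, -0.20 with 7). It was at 1.59 and 1.22 CPM in shScramble vehicle and 0.367 and 0.0645 CPM with 4-OHT, and at 18.0 and 20.9 CPM in shNKX2-1 vehicle, but had 0 counts in both shNKX2-1 4-OHT libraries. Against a floor of 3 counts over the group it was at least 176-fold lower there than with vehicle. Another member, Tcf7, went the other way, with an interaction of 2.47 ± 0.88 with 8 libraries and 2.07 with 7. Tcf7 stood at 0.258 to 3.94 CPM in all libraries. In this list 1 member was higher and 1 lower at an unadjusted p under 0.05 (25%, against 5.41% of all genes tested). Of 14 genes of the embryonic lung tip 9 were below 0. Mycn and Cpm had an unadjusted p under 0.05 (14.3%, against 5.41% of all genes tested) but did not pass (adjusted p = 0.866 and 0.609). Mycn, the transcription factor N-Myc, stood at 68.6 to 136 CPM in shScramble, and fell in shNKX2-1 from 148 and 75.2 CPM to 32.3 and 10.1 CPM (adjusted p = 0.0420). Carboxypeptidase M, encoded by Cpm, fell in both arms, to 56.9 and 64.1 CPM in shScramble and to 11.5 and 10.8 CPM in shNKX2-1, with an interaction of -1.34 ± 0.36 with 8 libraries and -1.27 ± 0.34 with 7.

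Transcripts encoded by mitochondria moved with 1 library. All 13 had an interaction above 0 with 8 libraries (median 1.53), and the median was 0.18 with 7 and 2.22 without replicate 1 of that library's group. mt-Nd4l, for example, stood at 17.2 to 36.8 CPM in 7 libraries and 528 CPM in shNKX2-1 4-OHT replicate 2. The median of the 30 cell cycle genes was likewise 0.04 with 8 libraries, -0.44 with 7 and 0.44 without that replicate 1. The 22 lipid synthesis and 21 hypoxia and glycolysis genes had medians of 0.04 and -0.09 with 8 libraries, and 0.18 and 0.02 with 7. For the 20 epithelial junction, 19 unfolded protein response and 17 YAP and TEAD target genes, they were -0.04, 0.35 and 0.02 with 8. With 7 libraries these were -0.08, 0.10 and 0.44. Without that replicate 1, the 5 medians in this order were 0.10, -0.12, -0.04, 0.15 and -0.25. These 5 lists held 1, 0, 1, 0 and 1 member with an unadjusted p under 0.05 (4.55%, 0%, 5%, 0% and 5.88%, against 5.41% of all genes tested).

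**Figure D5:**
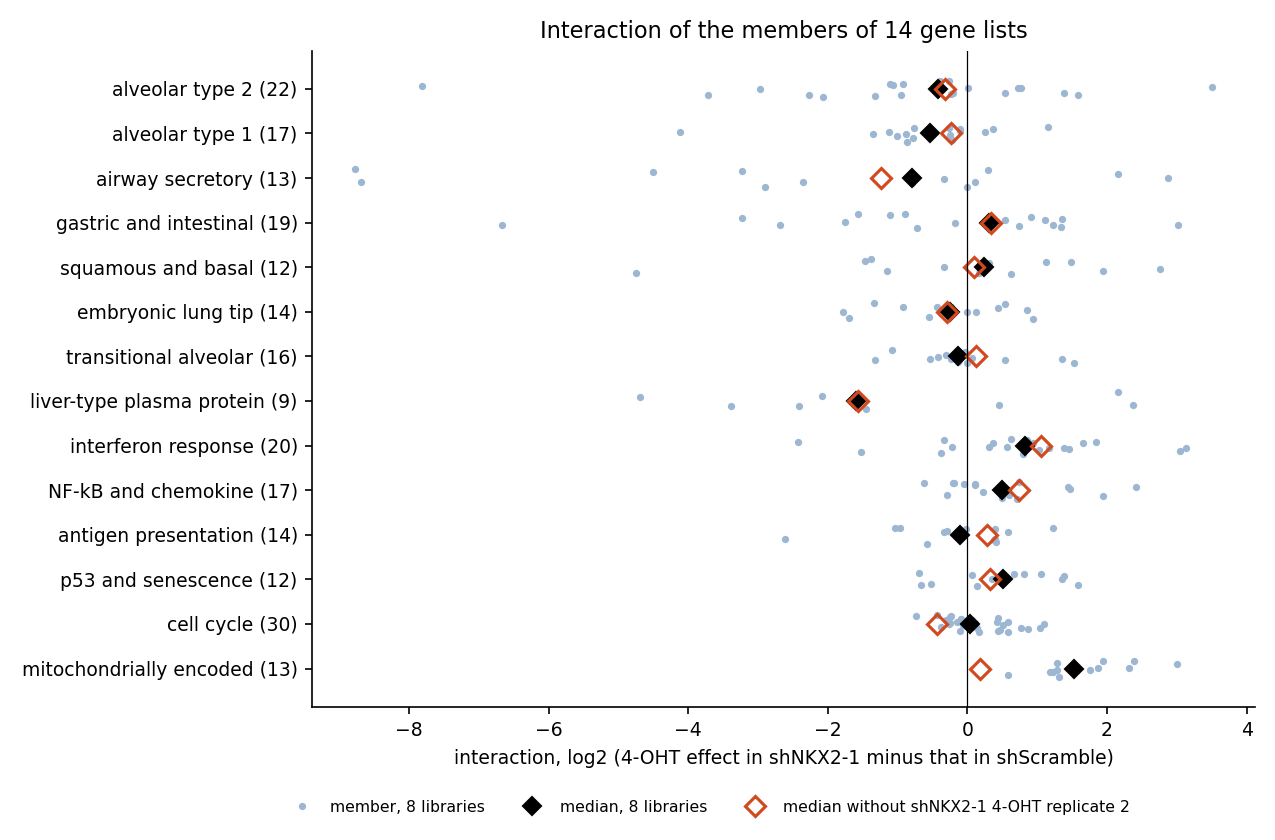
Interaction (log2, x axis) of each measured member of 14 gene lists with 8 libraries (points), with the list median for 8 libraries (filled diamonds) and without shNKX2-1 4-OHT replicate 2 (open diamonds); the number of measured members is in brackets. The mitochondrially encoded median moved from 1.53 to 0.18, the alveolar type 2 median from -0.42 to -0.32 and the interferon response median from 0.83 to 1.06.

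DESeq2 called 73 genes both with 8 and with 7 libraries, 35 higher and 38 lower, and those described here were chosen from them after their values were seen. Hdc, the enzyme that makes histamine, rose in shScramble from 7.61 and 7.77 CPM to 67.6 and 98.3 CPM (edgeR adjusted p = 0.00391) and stood at 2.29 to 5.68 CPM in the 4 shNKX2-1 libraries, with an edgeR interaction of -3.32 ± 0.58 with 8 libraries and -2.80 ± 0.36 with 7 (adjusted p = 0.301 and 0.107). Rassf2, a RAS association domain protein, rose in shScramble from 8.84 and 9.32 CPM to 32.0 and 42.4 CPM and stood at 4.42 to 5.93 CPM in shNKX2-1. Prrg3, a membrane protein with a Gla domain, rose in shScramble from 3.18 and 4.52 CPM to 29.7 and 36.1 CPM, but was already at 42.3 and 77.2 CPM in shNKX2-1 vehicle and 71.5 and 82.6 CPM with 4-OHT. Epas1, the hypoxia-inducible factor HIF-2 alpha, reached a like level with 4-OHT in both arms (19.9 to 23.7 CPM) from 0.295 and 0.270 CPM in shScramble vehicle and 2.56 and 1.44 CPM in shNKX2-1 vehicle. The hairpin thus stood beside lower levels of Hdc and Rassf2 and a higher level of Prrg3 under both treatments. The fitted differences were -1.05 with vehicle and -4.36 with 4-OHT for Hdc, and -0.67 and -2.89 for Rassf2. For Prrg3 they were 3.96 and 1.23.

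Bgn, Hs2st1, P3h2, Il1r1, Cdhr2 and Anks4b were among the 35 with a higher interaction by DESeq2. Bgn, the proteoglycan biglycan, fell in both arms, from 581 and 689 CPM to 51.0 and 31.4 CPM in shScramble and from 1470 and 843 CPM to 406 and 390 CPM in shNKX2-1 (edgeR interaction 2.41 ± 0.48 with 8 libraries and 2.45 ± 0.48 with 7, adjusted p = 0.395 and 0.214). Hs2st1, a heparan sulfate sulfotransferase, fell in shScramble from 64.9 and 50.2 CPM to 26.8 and 18.7 CPM and stood at 102 and 127 CPM in shNKX2-1 4-OHT. P3h2, a collagen prolyl hydroxylase, stood at 23.0 and 20.9 CPM in shScramble 4-OHT and rose in shNKX2-1 from 35.9 and 22.1 CPM to 71.7 and 76.2 CPM (edgeR adjusted p = 0.0261). Il1r1, the interleukin-1 receptor, stood at 55.7 to 69.1 CPM in shScramble and rose in shNKX2-1 from 98.7 and 89.2 CPM to 216 and 254 CPM (edgeR adjusted p = 0.0110). Cdhr2 and Anks4b, 2 parts of the complex that links microvilli of the brush border, both fell in shScramble. Cdhr2 went from 68.7 and 63.5 CPM to 0.306 and 0.258 CPM there, and from 59.1 and 44.4 CPM to 1.49 and 1.06 CPM in shNKX2-1. Anks4b went from 19.3 and 12.8 CPM to 1.65 and 1.03 CPM, but stood at 31.3 and 33.6 CPM and then 15.4 and 40.9 CPM in shNKX2-1. The interactions of Cdhr2 and Anks4b were 2.51 ± 0.48 and 3.36 ± 0.69 with 8 libraries, and edgeR called neither (adjusted p = 0.348 and 0.416). With 7 they were 2.74 ± 0.46 and 2.51 ± 0.43 (adjusted p = 0.166 and 0.171).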

How the data were processed

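RNA was counted per Ensembl gene ID in 8 libraries. The deposited table holds raw read counts with no normalisation, and whole numbers with differing totals were found when checked. Per the submitters' processing notes, GRCm38, STAR 2.7.6a, featureCounts 1.5.1 and DESeq2 were used, with no roles named. The sources used here give neither the strand setting nor the annotation release. Of 55487 IDs, 99.4% had a symbol in GENCODE vM21. The series' other 30 libraries were not used here. Groups came from the hairpin and treatment in the labels, and replicates are numbered in accession order. Interactions were fitted with edgeR 4.0.16 in R 4.3.3 (quasi-likelihood F test after filterByExpr and TMM, 4 group means, 4 residual degrees of freedom, 3 with 7 libraries), and called under an adjusted p of 0.05, with Benjamini-Hochberg adjustment across every gene tested. The 14465 and 15071 genes tested differ because the filter was run on each set of libraries. DESeq2 1.42.0 and limma 3.58.1 were alternatives. Log2 CPM used a prior count of 2. Scripts were tested on simulated counts. Named were Foxa1, Foxa2, Foxa3, Nkx2-1, the 6 genes per direction with the smallest p in 8 libraries (mean log2 CPM of at least 2, same sign in all 8 leave-one-out fits), and list members called with 7 libraries. Genes, lists and comparisons were chosen with earlier results of these data known. Floors and intervals cover counting error only, since reads carried no molecular identifiers.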

Additional observations from a re-analysis of the deposited data

Results flagged for a closer look

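For 7 genes the 4-OHT effect differed between the hairpins by the interaction test without shNKX2-1 4-OHT replicate 2, where edgeR's adjusted p was under 0.05. The interactions (log2) were 3.54 for Ces1g, 2.69 for Kbtbd11, 5.23 for Sema3a, 2.29 for Irs1, 2.04 for Ank, -2.56 for Sfta2 and -3.81 for Muc5b. Each rests on a single shNKX2-1 4-OHT library, and none was called by edgeR with all 8 libraries. The sign was the same for all 7 genes in both fits. These fits share 7 libraries, so the sign is no independent check.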

How the results depend on the processing

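Calls of the interaction depended on the tool and on single libraries. With 8 libraries edgeR called 0 genes under RLE normalisation, with a minimum log2 change of 1 and without mitochondrially encoded genes. It also called 0 with a robust fit (added after the data were seen), and limma with library weights called 0. DESeq2 called 89 and edgeR without a filter on low counts 227, and leaving out 1 library gave 0 to 3552. With 7 libraries the 7 calls became 141 with DESeq2, 426 without a filter and 0 with a minimum log2 change of 1. They became 6 or 7 under the other 4 settings, and 0 to 4 with a further library left out, of which 0 to 3 were among the 7. Leaving out any shScramble library gave 0.

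The same alternatives for the other comparisons were also added after the data were seen. For 4-OHT in shScramble, 627 calls became 1092 with DESeq2, 1372 without a filter, 276 with a minimum log2 change of 1 and 2119 with limma library weights. Leaving out 1 library gave 138 to 1655, with a shift of over 1.5 times for every library except the 2 of shNKX2-1 vehicle. For 4-OHT in shNKX2-1, 919 calls became 1786, 2455, 344 and 102 under the same 4 settings, and 258 to 6946 with 1 library left out. Every library shifted that count so except shNKX2-1 4-OHT replicate 2. For the hairpin with vehicle, 34 calls became 284, 461, 18 and 245, and 0 to 275 with 1 library left out (every library except shScramble 4-OHT replicate 2). For the hairpin with 4-OHT, 228 calls became 704, 1058, 45 and 48, and 0 to 5758 with 1 library left out (every library except shNKX2-1 4-OHT replicate 2). The cause was not tested. Fewer libraries per group make up part of each leave-one-out fit by construction.

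Of the 101 genes whose sign was followed with 8 libraries, only Foxa1 and Foxa3 changed sign. Most of the 101 were chosen for a small p in these libraries. Those named by the smallest p or from the DESeq2 calls were also kept only if their sign held in all 8 leave-one-out fits. For these genes a stable sign was fixed in advance. Foxa1 went from -0.07 to a range of -0.38 to 0.19 over the 8 fits, above 0 without shScramble vehicle replicate 2, shNKX2-1 vehicle replicate 1 or shNKX2-1 4-OHT replicate 2. Foxa3 went from 0.11 to a range of -0.37 to 0.54, below 0 without shScramble vehicle replicate 2, shScramble 4-OHT replicate 2, shNKX2-1 vehicle replicate 1 or shNKX2-1 4-OHT replicate 1. No paired analysis was possible because the labels carry no replicate numbers. Each group held 2 libraries, with totals of 13.6 to 16.3 M counts. How far depth or the spread between libraries limited each gene was not tested. Some genes had few counts in a group, such as Sftpc and Sp5, with 3 and 0 counts over shNKX2-1 4-OHT.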
